A study of Mus musculus with 4 samples.

Results

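The proteasome genes of mouse liver were taken from Agilent SurePrint G3 Mouse GE 8x60K arrays by their name, as every gene whose symbol begins with Psma, Psmb, Psmc, Psmd, Psme, Psmf or Psmg and goes on with a digit. The name fitted 49 of the 36161 gene names on the array, through 61 probes. One of them, Psmc3ip, encodes a factor of meiotic recombination and no proteasome subunit, so the counts are over the other 48 genes. Of these, 45 had a probe without an outlier flag and 43 were well above background on all 4 arrays. The measured RNA came from whole liver of microsomic (M) and control (C) mice, and each of the groups microsomic females (MF), control females (CF), microsomic males (MM) and control males (CM) was read on 1 array. Microsomic mice were those whose weight at birth lay under a low percentile of the colony for their gender, and controls were littermates of normal weight. Neither carried a transgene or received a treatment. The labels give the strain as C57BL/6J and the age as embryonic day 20, whereas the methods of the study speak of newborn C57BL/6 N animals and of more replicate experiments than are analysed here. The sources do not say whether an array held RNA of a single liver or of a pool.

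The proteasome is the barrel-shaped protease that degrades proteins tagged with ubiquitin. Its 20S core is built of alpha rings, which gate the entry, and beta rings, of which Psmb5, Psmb6 and Psmb7 carry the active sites. The 19S regulatory particle sits on the core: its base holds the ATPases that unfold a substrate, and its lid removes the ubiquitin chain. In leukocytes and in cells exposed to interferon, Psmb8, Psmb9 and Psmb10 take the place of the constitutive active subunits and form the immunoproteasome, and Psme1 and Psme2 form the PA28 cap, which opens the core without ATP. The perinatal liver is rich in blood-forming cells, so leukocytes, red cell precursors and hepatocytes all add to its proteasome RNA. Fewer cells of a type and less RNA per cell cannot be told apart in such whole-tissue samples.

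All values are the log2 of the processed signal of a spot minus the 75th percentile of its array, and a gene is represented by its brightest probe without an outlier flag. The 75th percentile ran from 628 on CM to 925 on MM in deposited units, and from 56.1% of the spots on CM to 65.3% on MM were well above background. All arrays shared a slide, on which condition went with the column and gender with the row, so position on the slide cannot be told apart from group. A single array per group leaves no spread between animals, and the number of arrays limits the precision of every value. For probes printed at 5 or more spots and as bright as the proteasome genes, the median SD between spots of the same array was between 0.17 and 0.24 log2. Carried to a difference between arrays this is 0.31 log2 for MF and CF and 0.28 log2 for MM and CM, which covers error within the array only. For a gap between such differences the SD from the spots is 0.44 log2 in females and 0.39 log2 in males. Different probes of the same gene did not always agree. Over the 11 proteasome genes with several probes the median gap between the highest and lowest probe was 0.47 log2 in the female comparison and 0.46 log2 in the male comparison, and the probes of 5 and 4 of these genes disagreed in sign. The nearest pair lay in Psmc2, an ATPase of the 19S base, at chr5:21309536-21309595 and chr5:21309546-21309602 (mm9). These probes share 50 of 60 bases, and yet MF minus CF was -0.25 log2 by the first and -1.0 log2 by the second.

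Between MF and CF the proteasome genes spread to both sides, with the immunoproteasome and PA28 subunits on the upper side and most 19S subunits and assembly chaperones on the lower side. The median of the 43 measured genes was -0.23 log2, against -0.11 over all genes well above background on both arrays and 0.14 over genes of the same brightness (20 classes of mean signal). In MF, 7 of 43 genes were more than 1.5-fold higher (16.3%) and 7 were more than 1.5-fold lower (16.3%), where 19.9% of all genes compared were higher and 21.0% were lower. Among genes of the same brightness the shares were 28.1% and 13.5%. The balance depended on the scaling, with 3 higher and 15 lower under quantile normalization and 12 higher and 1 lower in the deposited values without scaling, where the median was 0.18 log2 and lay 0.16 log2 under that of all genes. Of the 43 genes, 15 were higher in MF by any amount and 28 were lower.

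Between MM and CM the proteasome genes lay mostly on the upper side. Their median was 0.16 log2, against -0.07 over all genes well above background on both arrays and 0.03 over genes of the same brightness. In MM, 8 of 44 genes were more than 1.5-fold higher (18.2%) and 0 were more than 1.5-fold lower, where 17.7% of all genes compared were higher and 23.1% were lower. Among genes of the same brightness the shares were 13.7% and 12.1%. The median kept its sign under the other scalings but was 0.035 log2 after normexp background correction, which gave 10 higher and 3 lower. Of the 44 genes, 32 were higher in MM and 12 were lower. In females the gene nearest above the threshold was Psmd11, at 1.51-fold, and the nearest below it was Psmb5, at 1.49-fold. In males Psmg4, at 1.56-fold, was the nearest above and Psmd5, at 1.49-fold, the nearest below.

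**Figure D1:**
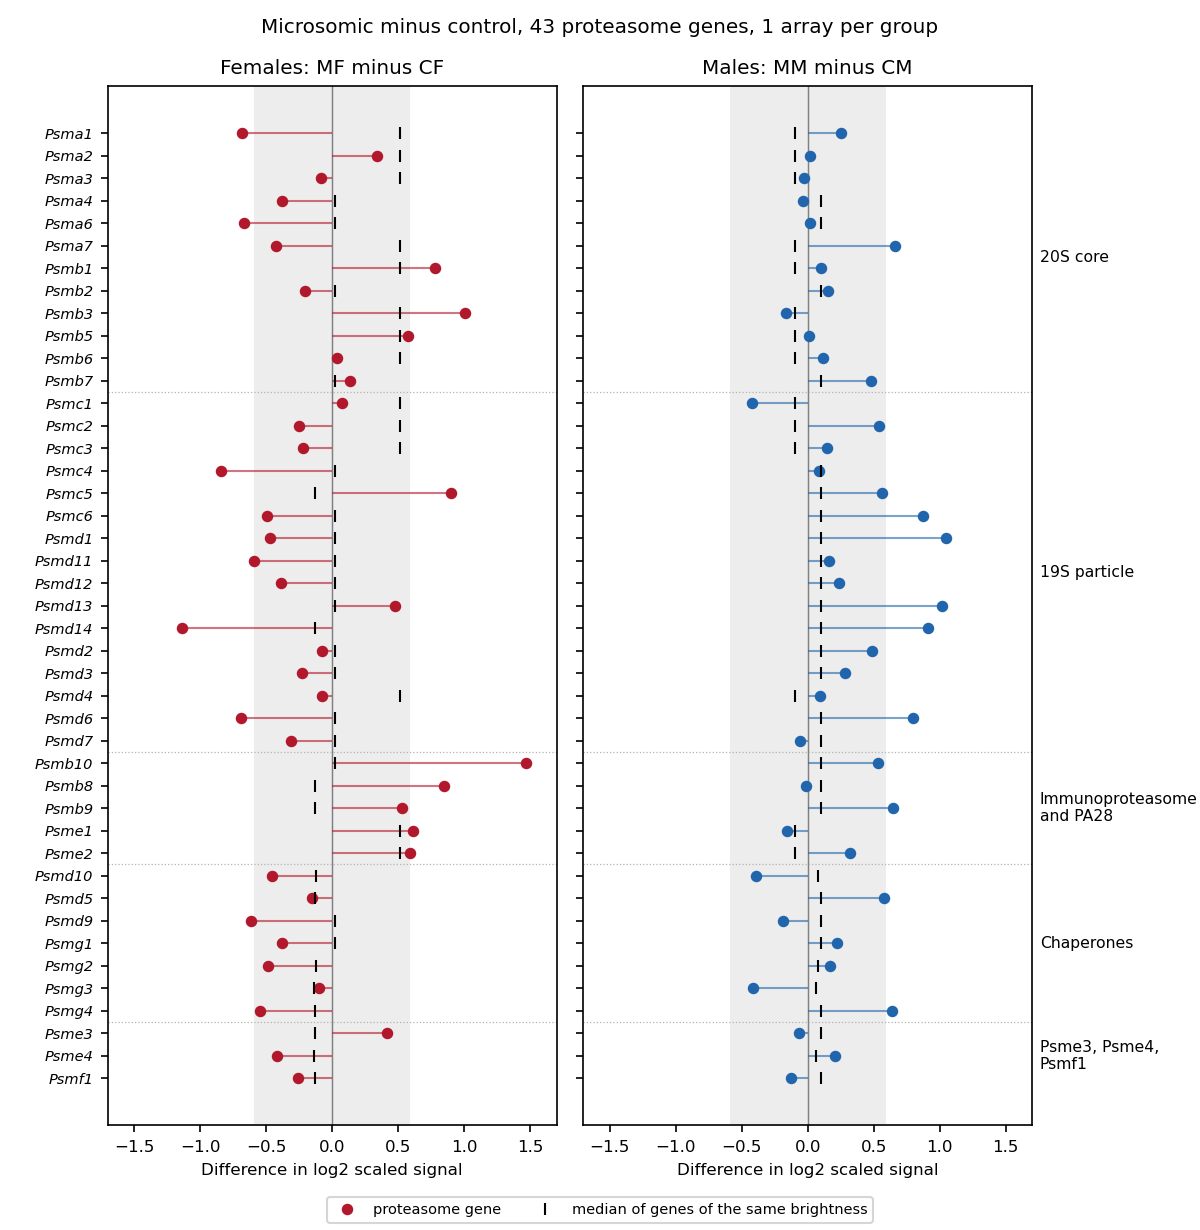
Difference in log2 scaled signal between microsomic and control arrays for the 43 proteasome genes well above background on all 4 arrays, females (MF minus CF) on the left and males (MM minus CM) on the right. Each point is 1 gene on 1 pair of arrays, so there are no error bars, the black tick is the median of genes of the same brightness, and the grey band holds differences under 1.5-fold. All 5 immunoproteasome and PA28 genes lie above 0 in females, and 14 of 16 genes of the 19S particle lie above 0 in males.

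The 5 genes of the immunoproteasome and PA28 all read highest on MF among the 4 arrays, where 25.8% of all 19298 genes did so. MF was also the highest array for 6 of 12 genes of the 20S core, 3 of 16 of the 19S particle and 0 of 7 chaperones. Psmb10, the inducible subunit that replaces Psmb7, read 5.14 on MF, 3.67 on CF, 3.66 on MM and 3.13 on CM. MF stood apart from the 3 other arrays, and MF minus CF was 1.47 log2 (2.77-fold), more than in 91.7% of genes of the same brightness. This difference lay between 1.10 and 1.87 log2 under the other ways of processing. MM minus CM was 0.53 log2 (1.44-fold). This passed 1.5-fold with median centring (0.77 log2), with the GC trend removed (0.73 log2), with normexp (1.08 log2) and without scaling (1.09 log2). It stayed under with quantile normalization (0.45 log2) and with the brightness trend removed (0.43 log2). Psmb8, the inducible counterpart of Psmb5, read 2.90 on MF, 2.05 on CF, 1.94 on MM and 1.95 on CM. Here again only MF stood apart, at 1.79-fold above CF (at least 0.63 log2 under each alternative), and the male arrays differed by -0.01 log2. Psmb9, which replaces Psmb6, read 2.80 on MF, 2.27 on CF, 2.17 on MM and 1.52 on CM. It was the only immunoproteasome gene more than 1.5-fold higher in MM than in CM (0.65 log2, 1.57-fold), but this was under 1.5-fold with the brightness trend removed (0.55 log2), with quantile normalization (0.56 log2) and with normexp (0.06 log2). Its female difference was 0.53 log2.

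The sequences that carried these values are shown because the inducible and constitutive subunits are close relatives whose RNA a probe has to tell apart. The Psmb8 probe lies at chr17:34337771-34337830 on the plus strand, and the dimmer of the Psmb5 probes at chr14:55233161-55233220 on the minus strand (mm9, as in the array annotation). They cover a matching stretch of both genes, in which 31 of 50 bases are the same without gaps (62%). Capitals mark the shared bases, and the probes are printed 5′ to 3′.
Psmb8: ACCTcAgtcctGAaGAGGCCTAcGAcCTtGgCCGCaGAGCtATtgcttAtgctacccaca
Psmb5: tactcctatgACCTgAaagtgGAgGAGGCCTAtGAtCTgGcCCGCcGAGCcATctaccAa
The probes of the other inducible subunits lie at chr17:34319174-34319233 for Psmb9 and chr8:108459677-108459736 for Psmb10, both on the minus strand. They were not compared with other probes in this way.
Psmb9: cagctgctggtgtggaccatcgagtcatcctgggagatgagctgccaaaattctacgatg
Psmb10: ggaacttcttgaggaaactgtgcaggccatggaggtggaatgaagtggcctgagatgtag

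Of the PA28 genes, Psme1 is printed at 10 spots on each array. Their mean was 5.47 ± 0.34 on MF, 4.86 ± 0.41 on CF, 4.47 ± 0.24 on MM and 4.62 ± 0.29 on CM (SD over 10 spots of the same array, which measures printing and hybridization and not animals). The spots of MF and CF overlapped, from 4.79 to 6.05 and from 4.09 to 5.39, and the means differed by 0.61 log2 (1.53-fold). The Psme1 probe holds 6 stretches of 5 bases (overlaps counted) that contain no A or G and have at least 3 C. Probes with 6 to 9 such stretches had median differences of -0.04 log2 for MF minus CF and -0.45 log2 for MM minus CM, against -0.16 log2 for Psme1 in males. Psme2, its partner in the PA28 ring, read 5.70 on MF, 5.11 on CF, 5.47 on MM and 5.15 on CM, so both M arrays lay above both C arrays. Its difference was 0.59 log2 in females and 0.32 log2 in males. Psme1 and Psme2 belong to the brightest class, whose median was 0.51 log2 in females, and their female differences exceeded those of 55.4% and 54.6% of that class. Quantile normalization left 0.12 log2 for Psme1 and 0.07 log2 for Psme2 in females, and normexp turned Psme2 to -0.30 log2, so neither PA28 gene stayed past 1.5-fold there.

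Markers of neutrophils, of macrophages and of the interferon response were mostly higher in MF than in CF, as these genes were. Of 8 markers of neutrophils and their precursors 7 were higher in MF than in CF, by up to 2.47 log2 for Ngp, and their summed signal was 1926 on MF, 930 on CF, 961 on MM and 1265 on CM in units of the 75th percentile. The neutrophil markers had a female median of 1.0 log2, where genes of the same brightness had 0.51 log2. Of 7 macrophage markers 6 were higher in MF, by up to 1.89 log2 for Csf1r. Their sums were 219, 92.6, 110 and 87.0 in the same order of arrays. Of 8 interferon response genes 7 were higher in MF, by up to 1.64 log2 for Isg15, with sums of 147, 57.0, 22.7 and 45.6. In males 7 of the 8 interferon genes were lower in MM than in CM. Macrophage markers were higher in MM for 5 of 7 (median 0.50 log2) and neutrophil markers for 4 of 8 (median -0.01 log2). Psmb9 and Psmb10 were higher in MM, and Psmb8 differed by -0.01 log2. Lymphocyte markers had sums between 15.3 and 18.3 on all arrays, and 5 of 8 were lower in MF than in CF (median -0.29 log2). Endothelial markers had sums between 38.0 and 51.9. Red cell markers had sums between 1456 and 2758, lower on both M arrays. The 8 hepatocyte markers were well above background on every array, with sums between 4364 on MM and 7160 on MF, and all of them were lower in MM than in CM. The part of these cell types in the proteasome values was not tested.

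By the brightest probe of each gene, the constitutive active subunits differed less than their inducible counterparts in females. Psmb5, the chymotrypsin-like subunit, read 6.44 on MF, 5.86 on CF, 5.40 on MM and 5.39 on CM, a difference of 0.58 log2 in females and 0.01 log2 in males. Its second probe gave -0.11 and 0.40 log2, so the female differences of the probes disagreed in sign and both male differences were above 0. Psmb6, the caspase-like subunit, read 6.76, 6.72, 6.51 and 6.40 on MF, CF, MM and CM, with differences of 0.04 log2 in females and 0.11 log2 in males, which became -0.70 log2 in females with quantile normalization and -0.69 log2 in males with normexp. Psmb7, the trypsin-like subunit, read 4.31 on MF, 4.18 on CF, 4.24 on MM and 3.76 on CM. Both M arrays lay above both C arrays, by a small margin in females (0.13 log2) and a larger one in males (0.48 log2). The female difference was -0.15 log2 with quantile normalization and -0.29 log2 with normexp, so the separation was lost there. Set against its constitutive partner, the female difference of Psmb10 was 1.34 log2 larger than that of Psmb7, that of Psmb9 was 0.49 log2 larger than that of Psmb6, and that of Psmb8 was 0.27 log2 larger than that of Psmb5. The last of these is below 0.44 log2, which is the SD of such a gap from the spread between spots and not a bound. By the dimmer Psmb5 probe, which covers the stretch of the Psmb8 probe, the gap was 0.95 log2. With the brightness trend removed, the female differences were 0.97 log2 for Psmb8 and 0.07 log2 for Psmb5. In males the corresponding gaps were 0.05, 0.53 and -0.02 log2, where the SD of a gap from the spread between spots was 0.39 log2. By the dimmer Psmb5 probe the male gap of Psmb8 was -0.41 log2.

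**Figure D2:**
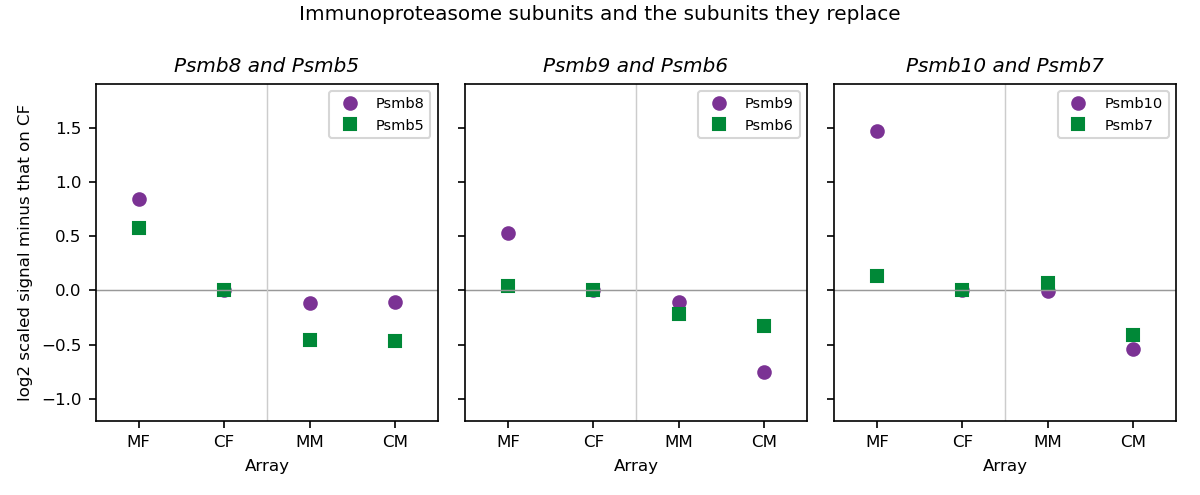
Log2 scaled signal of each immunoproteasome subunit (circles) and of the constitutive subunit it replaces (squares) on the 4 arrays, each gene set to 0 on CF, with 1 array per group and so no error bars. Psmb10 stands 1.47 log2 above CF on MF while Psmb7 stands 0.13 log2 above it, and CM is the lowest array for Psmb9 and Psmb10.

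The remaining subunits of the 20S core held no common direction in females, where the median lay between -0.49 and 0.07 log2 in the scaled alternatives, and in males most differences were small. Over the 12 measured alpha and constitutive beta subunits the median was -0.02 log2 in females and 0.06 log2 in males, where genes of the same brightness had 0.35 and -0.03 log2. Among the structural beta subunits, Psmb3 read 6.43 on MF, 5.42 on CF, 5.20 on MM and 5.37 on CM. MF alone was high, 2.01-fold above CF. The Psmb3 probe holds 4 of the stretches of C and T described for Psme1, a class of probe whose female median was -0.06 log2. Its difference fell under 1.5-fold with the brightness trend removed (0.50 log2), with quantile normalization (0.36 log2) and with normexp (0.02 log2). Psmb1 read 6.12 on MF, 5.33 on CF, 6.03 on MM and 5.93 on CM, so that CF was low and the others were close together, with MF 1.72-fold above CF. Its female difference exceeded that of 63.8% of the brightest class and was 0.16 log2 with quantile normalization. The alpha ring leaned the other way in females, where 5 of 6 measured genes were lower in MF. Psma1 read 4.56 on MF, 5.24 on CF, 5.17 on MM and 4.92 on CM, and MF was the lowest array at 1.61-fold under CF. Psma6 read 3.82, 4.49, 4.10 and 4.09, with CF the highest array and MF 1.59-fold under it. Neither call held without scaling (-0.29 log2 for Psma1 and -0.27 log2 for Psma6), and that of Psma6 was lost with median centring too (-0.57 log2). Psma7 was the only core gene more than 1.5-fold higher in MM than in CM, at 5.50 against 4.84. The other core genes, Psma2, Psma3, Psma4 and Psmb2, had differences between -0.38 and 0.34 log2 in females and between -0.04 and 0.15 log2 in males.

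The 19S regulatory particle had a wider gap between the female and male medians than the 20S core, the immunoproteasome with PA28 or the chaperones. Of its 16 measured genes 13 were lower in MF than in CF, with a median of -0.28 log2 (0.12 log2 without scaling, which shifted all genes up by 0.40 log2, and under 0 in the other alternatives), and 14 were higher in MM than in CM, with a median of 0.38 log2 (0.28 to 0.94 log2 under the alternatives). Genes of the same brightness had medians of 0.12 and 0.05 log2. Past 1.5-fold, 1 of the 16 was higher and 4 were lower in MF, while 5 were higher and 0 were lower in MM. The shares over all genes were the 19.9% and 21.0% given for females and the 17.7% and 23.1% given for males. Within these genes MF was the lowest of the 4 arrays for 7, CM for 7, MM for 2 and CF for 0, and CM was the highest for 0. Over all genes well above background, MF was the lowest for 34.2% and CM for 23.4%, and CM was the highest for 28.1%.

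Psmd14, the deubiquitinase of the lid, read 1.89 on MF, 3.03 on CF, 3.16 on MM and 2.25 on CM. CF and MM were high and MF and CM were low, so MF was 2.20-fold under CF and MM was 1.88-fold above CM. Only 2.59% of genes of the same brightness had a lower female difference, and 94.9% had a lower male difference. Under the alternatives the female difference lay between -1.49 and -0.74 log2 and the male difference between 0.65 and 1.47 log2. Psmd6, another lid subunit, read 3.11 on MF, 3.80 on CF, 4.27 on MM and 3.47 on CM. It followed the same order, with MF 1.62-fold under CF and MM 1.74-fold above CM, although the former was under 1.5-fold without scaling (-0.29 log2). These 2 genes were the only ones of the 43 past 1.5-fold in both genders, and both ran in opposite directions. Psmd13, also of the lid, read 4.88 on MF, 4.41 on CF, 4.11 on MM and 3.09 on CM, and CM was far below the others, with MM 2.02-fold above it. Psmd1, the large scaffold subunit of the base, read 4.25, 4.72, 4.86 and 3.81 on MF, CF, MM and CM, so that MM was 2.07-fold above CM and MF was 0.47 log2 under CF. The probes of the lid genes with the largest differences have the following sequences, at chr2:61599058-61599117 for Psmd14 and chr7:148084248-148084307 for Psmd13, both on the plus strand, and chr14:14946703-14946762 on the minus strand for Psmd6 (mm9).
Psmd14: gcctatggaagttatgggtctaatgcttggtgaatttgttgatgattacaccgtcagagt
Psmd13: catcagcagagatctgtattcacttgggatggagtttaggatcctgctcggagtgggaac
Psmd6: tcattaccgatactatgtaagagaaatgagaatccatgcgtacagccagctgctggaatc
None of the 3 holds a stretch of C and T as in the Psme1 probe or an alternating run of T and G over 3 bases.

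Among the 6 ATPases of the base, the largest differences pointed in different directions. Psmc5 read 3.62 on MF, 2.72 on CF, 2.88 on MM and 2.32 on CM. Both M arrays lay above both C arrays, by 0.90 log2 in females (1.86-fold) and 0.56 log2 in males (1.47-fold), and limma over the 4 arrays gave an adjusted p of 0.995 for it. Psmc4 read 3.59 on MF, 4.44 on CF, 4.22 on MM and 4.14 on CM, with MF alone low at 1.80-fold under CF (under 1.5-fold without scaling, at -0.44 log2). The Psmc4 probe joins exons, since its 60 bases span chr7:28827132-28827373 on the minus strand (mm9).
Psmc4: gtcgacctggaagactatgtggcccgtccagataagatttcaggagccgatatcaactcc
Psmc6 read 3.0, 3.5, 3.70 and 2.83 on MF, CF, MM and CM, and MM was 1.83-fold above CM, where MF was 0.50 log2 under CF. Psmc1 had the lowest male difference of the proteasome genes, at 4.74 on MM and 5.16 on CM (-0.42 log2), although its second probe gave 0.04 log2 and the sign turned with normexp (0.20 log2). The other ATPases, Psmc2 and Psmc3, differed by -0.25 and -0.23 log2 in females and by 0.54 and 0.15 log2 in males, where their second probes gave -0.02 and -0.04 log2. The remaining measured 19S genes (Psmd2, Psmd3, Psmd4, Psmd7, Psmd11 and Psmd12) had female differences between -0.59 and -0.08 log2 and male differences between -0.06 and 0.49 log2.

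**Figure D3:**
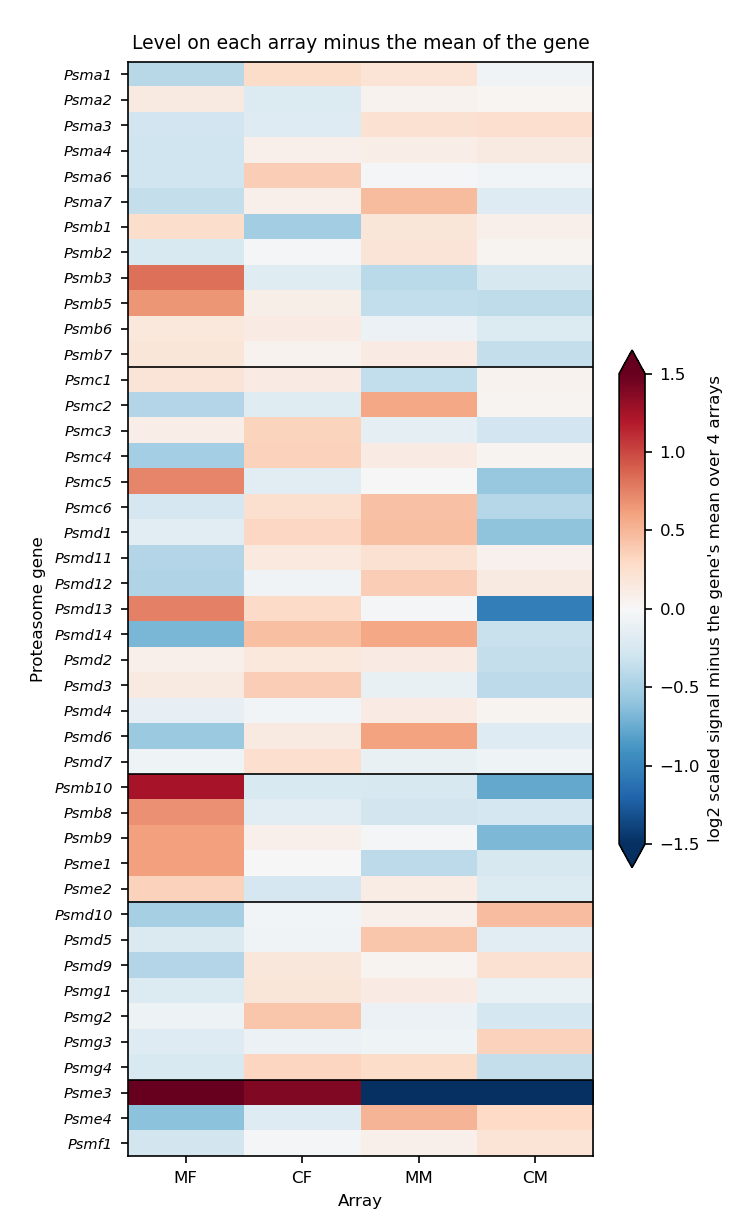
Log2 scaled signal of the 43 proteasome genes (rows, in blocks from the top: 20S core, 19S particle, immunoproteasome and PA28, chaperones, and Psme3, Psme4 and Psmf1) on the 4 arrays (columns), each gene minus its own mean, red above and blue below it. The immunoproteasome and PA28 block is red on MF, CM is never the highest array in the 19S block, and Psme3, whose colours are at the end of the scale, divides the female from the male arrays.

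The 7 assembly chaperones, which bring subunits together and leave the finished particle, were by their brightest probes all lower in MF than in CF, with a median of -0.46 log2 that stayed under 0 in every alternative (-0.50 to -0.06 log2), where genes of the same brightness had -0.09 log2. A single one, Psmd9, passed 1.5-fold, at 3.02 on MF, 3.63 on CF, 3.5 on MM and 3.69 on CM, and its female difference was 0.003 log2 with normexp. The second probe of Psmg1 gave 0.08 log2 in females and 1.22 log2 in males, against -0.38 and 0.22 log2 by the brightest. In males they divided into 4 higher and 3 lower, with a median of 0.17 log2. Psmd10, also known as gankyrin, read 1.5, 1.96, 2.08 and 2.47 on MF, CF, MM and CM and was lower on both M arrays than on the control of the same gender. Its second probe gave 0.26 log2 in females. Psmg3 read 0.95, 1.05, 1.08 and 1.49, with CM the highest array, and MM minus CM was -0.41 log2. Psmg4 was higher in MM than in CM, at 2.47 against 1.83 (1.56-fold), and lower in MF than in CF, at 1.97 against 2.52.

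Psme3, which encodes the nuclear activator PA28 gamma, differed between the genders more than any other proteasome gene. It read 4.68 on MF and 4.27 on CF, and 1.26 on MM and 1.32 on CM. Both female arrays were far above both male arrays, CM being 7.71-fold under CF and MM 10.8-fold under MF, while microsomic and control differed by 0.41 log2 in females and -0.07 log2 in males. The gene has 1 probe on the array, at chr11:101184289-101184348 on the plus strand (mm9). Part of the probe is a simple repeat, and its bases 23 to 52 are shown with the alternating runs of T and G in capitals.
Psme3: caTGTGTGTGTGTGTtcGTGTGTGTGTGTt
The longer run has 13 bases and the other 12. Most probes with such repeats read lower in males. Of the 25040 probes well above background on all arrays, 148 had an alternating run of T and G of 10 bases or more, and 138 of these (93.2%) were lower on both male arrays than on the female array of the same condition. With a longest run of 12 to 15 bases (41 probes) the median was -2.15 log2 for CM minus CF and -3.54 log2 for MM minus MF, and with a run of at most 3 bases (15426 probes) it was 0.09 and 0.14 log2. Conversely, 32 probes of any gene were lower in males by more than 2.5 log2 in both comparisons, and 31 of them carried such a run. The Psme3 difference between MM and MF lay inside the quartiles of the probes with 12 to 15 bases (-4.56 to -3.08 log2), and that between CM and CF lay just below theirs (-2.70 to -1.23 log2). These probes also differed between microsomic and control. Their medians were 1.23 log2 in females (quartiles 0.58 to 2.23) and -0.26 log2 in males (-0.63 to -0.07), against -0.11 and -0.04 log2 with at most 3 bases. The Psme3 values for microsomic minus control were 0.41 and -0.07 log2. No other probe of the gene was there to compare, and the part of the repeat in the Psme3 values was not tested.

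**Figure D4:**
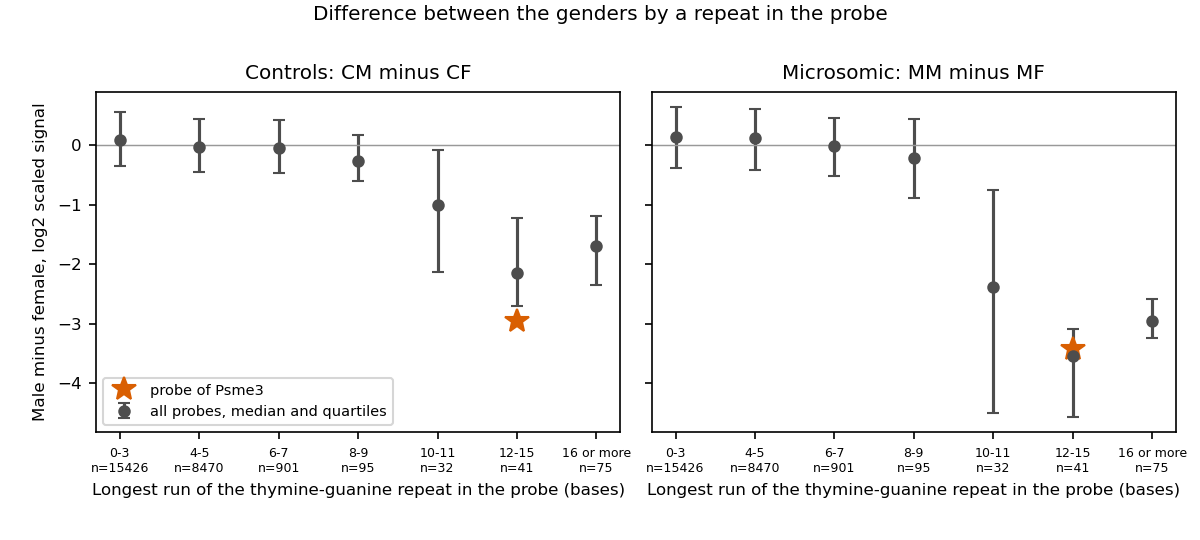
Male minus female difference in log2 scaled signal over all probes well above background on all 4 arrays, by the longest thymine-guanine repeat in the probe, for the control arrays (left) and the microsomic arrays (right). Circles are medians and bars run from the lower to the upper quartile of the probes, the number of probes stands under each class, and the star is the single probe of Psme3, at -2.95 and -3.43 log2.

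Of the other factors that bind the core, Psme4, the PA200 activator of the nucleus, read 0.36 on MF, 0.78 on CF, 1.48 on MM and 1.28 on CM. Both male arrays were above both female arrays, and microsomic minus control was -0.42 log2 in females and 0.21 log2 in males. Psmf1, the inhibitor PI31, read 2.42, 2.67, 2.77 and 2.90 on MF, CF, MM and CM and was 0.26 and 0.13 log2 lower on the M array of each gender, less than the spread of a single difference. The male difference was -0.99 log2 with normexp and 0.32 log2 with the position trend removed. Psmb11, the catalytic subunit of the thymus, was not well above background on any array. Psma8, the alpha subunit of germ cells on chromosome 18, was well above background on MM alone, where it read -4.52, and MM was at least 1.12-fold above the limit on CM. Psmc3ip, left out of the counts, read -0.36, -0.20, 0.29 and 0.34 on MF, CF, MM and CM.

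A further 3 genes had only a probe with an outlier flag on 1 of the arrays, so their values stand apart. Psma5, an alpha subunit flagged on MF, read 5.11 there, 5.80 on CF, 5.61 on MM and 5.73 on CM. Its probe has an alternating T and G run of 10 bases, and unlike Psme3 it read no lower on MM than on MF. Psmb4, a structural beta subunit flagged on CM, read 6.58, 5.85, 6.10 and 5.79 on MF, CF, MM and CM. Psmd8, a lid subunit also flagged on CM, read 4.62, 5.01, 4.94 and 4.52, in the order CF, MM, MF, CM from the highest to the lowest.

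Taking M against C over both genders, few proteasome genes separated. Both M arrays lay above both C arrays for 5 of 43 genes (11.6%), namely Psma2, Psmb1, Psmb7, Psmc5 and Psme2, where 11.6% of all 19298 genes did so. Both M arrays lay below both C arrays for Psmd7 and Psmd9 (4.65%), where 16.5% of all genes did so. limma with gender as a second term (1 residual degree of freedom, Benjamini-Hochberg adjustment over 19298 genes) called 0 of the 43 genes, and 0 of them had an unadjusted p under 0.05. It called 0% of all genes, of which 851 (4.41%) had an unadjusted p under 0.05. The lowest p among the proteasome genes belonged to Psmb10, for which M was 1.0 log2 above C with an unadjusted p of 0.0578 and an adjusted p of 0.995 by limma.

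The female and male comparisons share no array. Across the 43 genes their differences had r = -0.11 and rho = -0.19, given as a description since genes of an array are not independent, against -0.04 and -0.01 across all 19298 genes. Their signs were opposite for 26 of the 43 genes (60.5%), where 50.6% of all genes had opposite signs. Of these 26 genes, 21 were lower in MF and higher in MM, and 5 were higher in MF and lower in MM. With 28 of 43 genes lower in MF and 32 of 44 higher in MM, opposite signs are the more frequent outcome even for unrelated differences.

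Between the genders, 10 of 43 genes (23.3%) were more than 1.5-fold lower in CM than in CF and 1 (2.33%) was higher. Over all genes 19.7% were lower and 26.6% were higher, and among genes of the same brightness 17.2% and 13.4%. Between MM and MF, 12 of 44 genes (27.3%) were more than 1.5-fold higher in MM and 9 (20.5%) were lower. Over all genes the shares were 28.9% and 20.5%, and among genes of the same brightness 19.1% and 31.4%. Both female arrays lay above both male arrays for 13 of 43 genes (30.2%), against 19.5% of all genes and 26.5% of genes of the same brightness. They lay below both male arrays for 10 (23.3%), against 23.5% and 17.9%. Among the 13 were all 3 immunoproteasome subunits, Psmb5, Psmb6 and Psme3, whose probe holds the repeat of T and G. The order of Psmb10 was MF, then CF and MM, which differed by less than 0.1 log2, then CM.

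The genes around the proteasome did not all follow it. Of 38 listed genes of the ubiquitin pathway and of peptide presentation measured in females 6 were more than 1.5-fold higher in MF and 3 were lower, and of 37 measured in males 8 were higher in MM and 2 were lower, with medians of 0.02 and 0.16 log2. These counts stand against shares over all genes of 19.9% higher and 21.0% lower in females and of 17.7% and 23.1% in males. The polyubiquitin gene Ubb read 9.44 on MF, 8.22 on CF, 8.13 on MM and 8.62 on CM, and Uba1, the main enzyme of ubiquitin activation, read 6.83, 5.59, 4.96 and 5.23, with MF the highest array for both. Pomp, the chaperone of the unfinished core, was 0.19 log2 lower in MF and 0.47 log2 higher in MM. Of the regulators of expression, Nfe2l1, which induces proteasome genes when the protease is blocked, differed by 0.19 and 0.10 log2, and Nfe2l2, which answers oxidative stress, by -0.52 and 0.65 log2. The 6 shuttle factors, which carry ubiquitin-tagged proteins to the 19S particle, had medians of -0.04 log2 in females and 0.57 log2 in males, where 3 of them were more than 1.5-fold higher in MM. Of the genes that load peptides on MHC class I, Tap1, Tap2 and Tapbp were higher in MF by 0.41, 0.19 and 0.59 log2 and differed in males by 0.02, -0.02 and -0.14 log2. Erap1, which trims the peptides, and B2m, the light chain of MHC class I, were lower in MF by 0.50 and 0.25 log2 and differed in males by 1.58 and -0.16 log2. Irf1, an inducer of the immunoproteasome, read 2.01 on MF, 2.53 on CF, 3.42 on MM and 2.03 on CM, and so was lower in MF and 1.40 log2 higher in MM. Irf8, which acts in myeloid cells, was higher by 0.77 log2 in MF and 0.55 log2 in MM.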

How the data were processed

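The authors labelled total RNA of whole liver with Cy3 and hybridized it to Agilent arrays of 60-base probes. Data of 1 array for each of 4 groups were analysed here. As deposited, the processed signal holds linear intensity values after the background subtraction and detrending of Agilent Feature Extraction 10.7.3.1, not normalized between arrays. The table of values deposited by the authors equals it in all 62976 spots of each array, within a relative tolerance of 1e-06. The outlier and background flags deposited beside it were used as given. Positions (mm9) and gene names come from the annotation of the array.

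The 75th percentile over the non-control spots was subtracted from each log2 signal, and arrays were then compared. The 1754 spots with a non-uniformity or population flag on any of the arrays were dropped throughout, spots of a probe were averaged, and the brightest probe stood for a gene. A gene was compared between a pair of arrays where at least 1 array was well above background, and the other array was then set no lower than the lowest signal well above background there (log2 -5.98 on MF, -5.48 on CF, -5.83 on MM and -4.68 on CM). A call was a difference above 1.5-fold, and pairs of single arrays got no p-value. limma 3.58.1 was fitted to all 4 arrays with condition and gender. It was tried on simulated data with added changes larger than any proteasome gene showed. Its power to call changes as small as those of the proteasome genes was not tested. Named with values were all active, inducible and thymic beta subunits, activators and the inhibitor, the 5 largest rises and falls per comparison, and genes past 1.5-fold in both genders, and others named are so for their role or were chosen after their values were seen. The members, the gene lists and the tests were chosen with earlier results of these data known. The alternatives tried were other scalings and background corrections, other filters on dim and flagged spots, the mean over probes, trends of brightness, GC content and position removed, a 2-fold threshold, other limma models, and, chosen after seeing the data, probes with T and G or C and T repeats left out. All 49 symbols matched a RefSeq table of GRCm38.p6.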

Additional observations from a re-analysis of the deposited data

Results flagged for a closer look

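The following results were set apart because the microsomic array moved one way in females and the other way in males. None of these differences between the genders was tested, since each rests on 1 array per group. For Psmd14 the female difference (-1.14 log2) less the male difference (0.91 log2) was -2.05 log2, and for Psmd6 (-0.69 and 0.80 log2) it was -1.49 log2. The same subtraction gave -0.39 log2 for the median of all proteasome genes, -0.081 log2 for the 20S core, -0.67 log2 for the 19S particle and -0.63 log2 for the assembly chaperones. The female median of the 20S core was 0.07 log2 with median centring, so its opposite signs did not hold there.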

How the results depend on the processing

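With 1 array per group no replicate could be left out, and M and C were paired within gender only through the gender term of the limma fit. Relative to the median of all genes, that of the proteasome genes lay lower in females (-0.41 to -0.017 log2) and higher in males (0.0002 to 0.38 log2) in every setting. Their median for MF minus CF, -0.23 log2, became 0.18 in the deposited values without scaling, where all genes shifted up by 0.40, and was -0.13 with centring on the array medians, -0.47 with quantile normalization, -0.33 with normexp, -0.34 with the brightness trend removed, -0.15 with the GC trend removed and -0.16 with the mean over probes. The median for MM minus CM, 0.16 log2, stayed above 0 and was 0.40 with median centring (shift of all genes 0.24), 0.72 without scaling (shift 0.56), 0.035 with normexp and 0.41 with the position trend removed. The 7 genes more than 1.5-fold higher in MF became 12 without scaling, 3 with quantile normalization, 4 with the brightness trend removed and 2 at 2-fold. The 7 genes lower in MF became 1 without scaling, 4 with median centring, 15 with quantile normalization, 13 with normexp, 12 with the brightness trend removed and 1 at 2-fold. The 8 genes higher in MM became 29 without scaling, 14 with median centring, 16 with the position trend removed and 2 at 2-fold, and the 0 lower in MM became 3 with normexp, 2 with the position trend removed and 1 with no filter on dim probes. The 5 genes with both M arrays above both C arrays became 21 without scaling, 3 with median centring, 1 with quantile normalization, 2 with normexp and 3 with the brightness trend removed. The 2 genes with both below became 0 without scaling, 4 with quantile normalization, 6 with normexp, 5 with the brightness trend removed and 1 with the GC trend removed. limma called 0 proteasome genes in every setting, and over all genes 9 without scaling and 163 at the threshold of the methods without adjustment. With normexp, 8 of the named genes changed sign in females, Psmb5 to -0.41, Psmb6 to -0.42, Psmb7 to -0.29, Psmc1 to -0.75, Psmd9 to 0.003, Psmd13 to -0.29, Psme2 to -0.30 and Psme4 to 0.25 log2, and in males Psmb1 changed to -0.28, Psmb3 to 0.57, Psmb6 to -0.69, Psmc1 to 0.20 and Psme4 to -0.41 log2. The median of the 19S particle for MF minus CF was 0.12 log2 without scaling. Beyond the shift of all genes where scaling was left out, the cause of these changes was not tested. A stricter filter on dim probes could not alter a count of arrays that already required signal above background on all 4.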

Other observations

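Promoters from RefSeq (GRCm38.p6, 250 bases before to 50 after the start) were at hand for 40 of the 48 proteasome genes and were searched on both strands for 5 motifs. The ETS core CCGGAAG occurred in 14 of the 40 genes (35%) and in 9.93% of all 27025 genes with a promoter. TGACNNNGC, the core of the antioxidant response element that Nfe2l1 and Nfe2l2 bind, occurred in 15% against 14%, GAAANNGAA, of the interferon stimulated response element, in 17.5% against 9.76%, TTCNNNGAA, of the gamma activated site, in 7.5% against 9.55%, and CCAAT in 35% against 41.1%. These are matches of letters in a window and not sites of binding. Among the proteasome genes with a value, the 14 with the ETS core had a median difference of -0.32 log2 in females and 0.21 log2 in males, and the 22 without it -0.12 and 0.10 log2. Of the 8 genes more than 1.5-fold higher in MM than in CM, Psmd6, Psmc6 and Psmd13 hold the ETS core. Psmd14, Psma7, Psmb9 and Psmg4 have a promoter at hand without it, and a link between motif and difference was not tested. In Psmd6 and Psmc6 the core lies before the start. A stretch of 100 bases of each is shown with the motif in capitals, at chr14:14120946-14121045 on the minus strand for Psmd6 and chr14:45329684-45329783 on the plus strand for Psmc6 (GRCm38.p6).
Psmd6: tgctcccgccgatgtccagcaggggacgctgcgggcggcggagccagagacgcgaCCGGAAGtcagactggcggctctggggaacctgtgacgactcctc
Psmc6: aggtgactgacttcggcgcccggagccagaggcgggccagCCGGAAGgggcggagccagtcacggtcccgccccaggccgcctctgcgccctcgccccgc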
